A study of Aedes aegypti with 33 samples.

Results

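A set of 170 genes of the mosquito Aedes aegypti, 0.862% of the 19712 genes counted, is described here: their levels were higher with added heme than without it in Aag2 cells, and lower in A20 cells. They were chosen on measured values, with counts scaled to the total of each library and given as CPM. For each contrast, d is the log2 ratio of the mean CPM, each plus 1, minus the median of that ratio over genes averaging at least 5 CPM in the experiment. A gene was kept when d for 10 μM against 0 μM heme was at least 0.5 in Aag2 cells in both media and at most -1 in A20 cells, and when d for 20 μM heme added to serum was below 0.5. All these values are therefore given as a description, with no test.

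Aag2 and A20 are continuous Ae. aegypti cell lines kept at 28 °C. A20 cells were grown for 72 h in SF900 II with 10 μM heme, in SF900 II with no heme added (0 μM) or in L-15 with 10% fetal bovine serum (FBS), so basal medium and serum changed together. Aag2 cultures were kept for 72 h in L-15 medium, and in a separate experiment in Schneider's medium, with 10 μM heme and no FBS, with neither (0 μM), or with 10% FBS. In a further experiment 20 μM heme was added, or not, for 48 h to Aag2 cultures that had Schneider's medium and 10% FBS. The paper proposes, from uptake of a heme analog by Aag2 cells, that medium with FBS itself holds over 10 μM heme. Each of the 11 groups had 3 biological replicates, 33 polyA RNA libraries in all.

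Heme is the iron porphyrin of hemoglobin, and a female mosquito takes in large amounts of it with each blood meal. It serves as an iron source and as a cofactor, and free heme damages membranes and proteins by oxidation, so cells bind, export or degrade it. The study used these cultures to look for membrane proteins that carry heme, by comparing cells with and without it.

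Libraries held 22860764 to 38002762 counts. Over the 500 genes that differed most between a pair of libraries, the root mean square log2 distance was 1.90 to 5.45 within a cell line and 6.41 to 7.89 between lines, so no library lay nearer to the other line. The A20 libraries with 10 μM heme stood apart in composition. Their 10 most abundant genes took 14.1% to 17.6% of counts, against 7.18% to 11.5% in the other libraries, and their TMM scaling factors were 0.510 to 0.617, against 0.862 to 1.37. Levels below are CPM after TMM scaling over all 33 libraries, and d keeps the scaling of the rule. Replicate 1 of the A20 10 μM group also differed from replicates 2 and 3: it was the highest of the 3 for 142 of the 170 genes, while replicate 1 of the 0 μM group was the lowest for 112. Over the 8180 genes of at least 5 CPM in A20 libraries these shares were 39.9% and 39.7%. Over 1578 other genes whose 10 μM mean was under 50% of the 0 μM mean they were 86.4% and 59.0%.

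In A20 cells d had a median of -1.63 over the 170 genes, with quartiles of -2.27 and -1.25 and a lowest value of -5.44. The median log2 ratio over the 7866 genes averaging at least 5 CPM in that experiment was -0.636, so without centring the genes' own median was -2.26. In Aag2 cells d had a median of 1.07 in L-15, with a highest value of 2.77, and of 1.00 in Schneider's medium, with a highest value of 3.27. At 48 h the median was 0.11 and the values ran from -0.80 to 0.50. There 57 genes lay below 0 and 112 lay within 0.25 of 0. The responses were uneven in size: 22 genes had d of -3 or lower in A20 cells, and 4 had d of at least 2 in both Aag2 experiments.

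**Figure D1:**
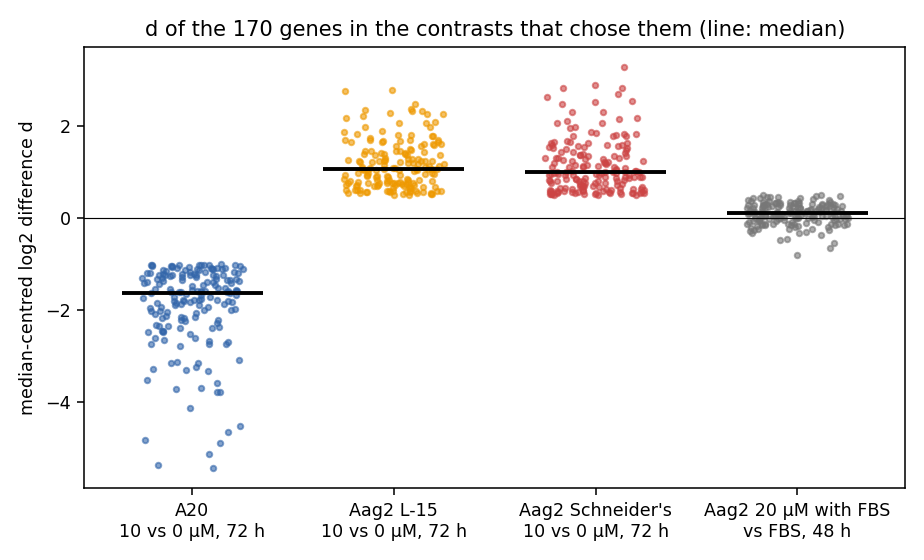
Each point is 1 of the 170 genes; the vertical axis is d, the median-centred log2 difference, for 10 μM against 0 μM heme in A20, Aag2 L-15 and Aag2 Schneider's cultures and for 20 μM heme with FBS against FBS at 48 h. The black lines are the medians, -1.63, 1.07, 1.00 and 0.11, and the empty bands next to 0 at 72 h come from the thresholds that chose the genes.

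At the edges of the rule, AAEL009955 had d of -1.01 in A20 cells, and AAEL001946, at -0.99, was left out. In L-15 AAEL010283 had 0.51, and AAEL014768, at 0.497, was left out. In Schneider's medium AAEL007531 and AAEL019515 lay on either side of 0.5, at 0.5007 and 0.4998, and at 48 h AAEL013872 lay inside at 0.498 with AAEL023810 outside at 0.502. Membership near the thresholds thus turned on small differences. The A20 condition was the one that removed most genes: 933 genes met the other conditions, and 763 of them had d above -1 in A20 cells. Of these 763, 238 averaged at least 5 CPM in A20 libraries, and 80 of the 238 were raised there by 0.5 or more.

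The median level over the 170 genes shows the pattern in each library. In A20 cells it was 10.9, 5.10 and 5.85 CPM with 10 μM heme, 34.1, 40.9 and 40.2 CPM with 0 μM and 13.4, 12.0 and 14.2 CPM with FBS. Every 10 μM library lay below every FBS library, and every 0 μM library lay above both. In Aag2 L-15 cultures it was 24.0, 22.1 and 23.7 CPM with 10 μM heme, 11.6, 11.8 and 11.3 CPM with 0 μM and 7.37, 6.83 and 6.65 CPM with FBS, 3 levels that did not overlap. The Schneider's cultures had 16.4, 16.3 and 14.8 CPM with 10 μM heme, 5.27, 6.00 and 6.20 CPM with 0 μM and 8.28, 7.19 and 6.83 CPM with FBS, so there the 0 μM libraries were the lowest. At 48 h it was 5.75, 5.29 and 4.96 CPM with 20 μM heme and 5.04, 4.86 and 4.92 CPM without, and these ranges met. A20 cells in SF900 II with neither serum nor added heme thus had the highest medians in the series. The rule favours high levels in this group.

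**Figure D2:**
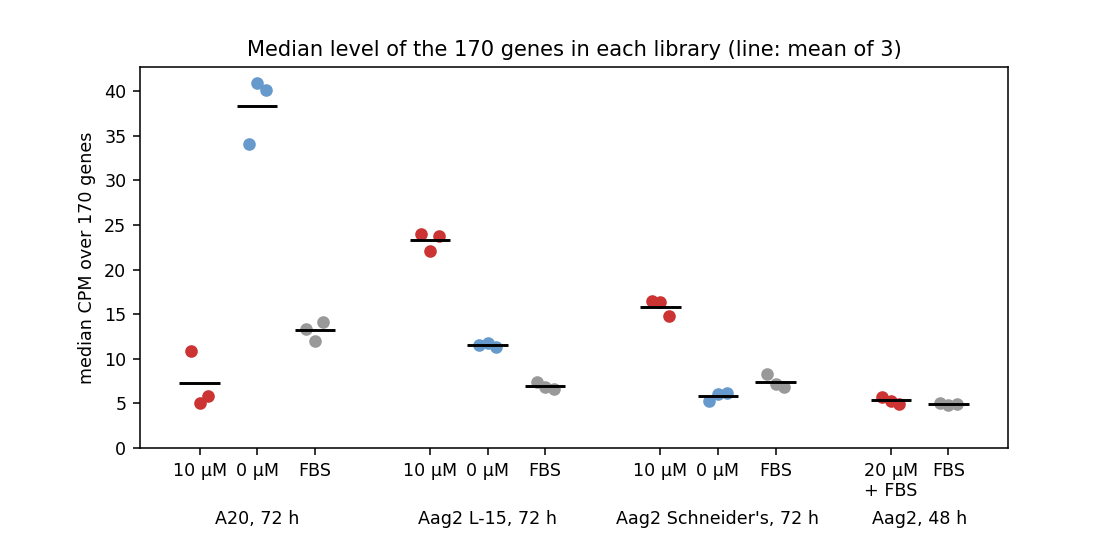
Each point is 1 library and gives the median CPM over the 170 genes (vertical axis, from 0); groups are set side by side within each experiment, in red for added heme, blue for 0 μM and grey for FBS, with lines at the mean of 3. The A20 0 μM libraries sit at 34.1 to 40.9 CPM, above all others, and replicate 1 of the A20 10 μM group, at 10.9 CPM, sits above replicates 2 and 3, at 5.10 and 5.85 CPM.

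Few of the genes can be named. The study's annotation table, as given here, lists 4 of the 170 with coordinates on the AaegL5 assembly and describes 3, and the remaining genes are given by their AAEL identifiers alone. Lists of transporters, proteases, chaperones, heme handling, redox enzymes and other functions therefore caught only 1 transporter and 1 protease, and say nothing of the other 167 genes.

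AAEL002126 (chromosome 3, 177147552 to 177223497) is CLIPA15, a clip-domain serine protease homologue. CLIPA proteins lack protease activity and are known in mosquitoes for modulating the cascades of melanization. In A20 cells it had 0.954, 0.0816 and 0.145 CPM with 10 μM heme, 14.2, 2.27 and 33.3 CPM with 0 μM and 0.405, 0.286 and 0.688 CPM with FBS. The 0 μM libraries were the highest but spread more than 10-fold. In Aag2 L-15 cultures it had 12.2, 6.12 and 8.51 CPM with 10 μM heme, 5.39, 2.29 and 3.69 CPM with 0 μM and 1.93, 1.83 and 1.98 CPM with FBS, the 10 μM libraries being the highest.

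AAEL008624 (chromosome 2, 455615233 to 455650540) encodes an ABC transporter, a class of membrane proteins that move substrates with the energy of ATP. In A20 cells it had 5.73, 2.12 and 1.74 CPM with 10 μM heme, against 8.26, 14.3 and 13.9 CPM with 0 μM. In Aag2 L-15 cultures it had 16.0, 17.7 and 19.0 CPM with 10 μM heme, against 5.28, 3.80 and 3.89 CPM with 0 μM. These levels in Schneider's medium were 18.2, 18.0 and 14.6 CPM with 10 μM heme, against 7.70, 8.44 and 7.37 CPM with 0 μM. None of these pairs of groups overlapped. With FBS the gene was lower in A20 cells, which had 2.88, 2.48 and 2.52 CPM, against 9.40, 6.73 and 9.17 CPM in Aag2 L-15 cells, a log2 fold change of -1.70 ± 0.19 (SE, edgeR adjusted p = 5.4e-05).

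AAEL005002 (chromosome 3, 323877321 to 324230807) is roundabout, in Drosophila a receptor for Slit that guides axons. It had 10.2, 3.67 and 5.23 CPM in A20 cells with 10 μM heme, against 15.05, 16.2 and 16.5 CPM with 0 μM. In Aag2 cells in Schneider's medium it had 9.40, 6.82 and 7.55 CPM with 10 μM heme, against 1.97, 1.68 and 2.92 CPM with 0 μM. Its d of -1.17 in A20 cells lay on the weaker side of the upper quartile of -1.25.

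The gene with the largest response by the weakest of its 3 contrasts was AAEL011470, with d of -5.44 in A20 cells, 2.77 in L-15 and 2.52 in Schneider's medium. In A20 cells it had 2.86, 0.652 and 0.291 CPM with 10 μM heme, 40.5, 167 and 157 CPM with 0 μM and 0.891, 0.524 and 0.413 CPM with FBS. In Aag2 L-15 cultures it had 16.1, 19.7 and 19.1 CPM with 10 μM heme, 1.66, 3.30 and 1.78 CPM with 0 μM and 0.551, 0.863 and 1.22 CPM with FBS. The gene was thus low with FBS in both lines, at 9 to 22 counts per A20 library, and the group in which it was high was 0 μM heme in A20 and 10 μM heme in Aag2. AAEL003857 showed the same order on a larger scale. It had 106, 10.6 and 8.94 CPM in A20 cells with 10 μM heme, 770.0, 1458 and 1336 CPM with 0 μM and 0.243, 0.429 and 0.321 CPM with FBS, where it rested on 6 to 9 counts per library. In Aag2 L-15 cultures it had 21.3, 19.3 and 21.1 CPM with 10 μM heme, 3.52, 3.61 and 4.13 CPM with 0 μM and 1.34, 2.00 and 2.15 CPM with FBS. At 48 h its levels were 28.4, 20.9 and 26.0 CPM with 20 μM heme and 33.1, 31.9 and 26.4 CPM without, above the FBS libraries of 72 h.

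AAEL014238 had 37.3, 2.69 and 1.96 CPM in A20 cells with 10 μM heme and 133, 244 and 249.5 CPM with 0 μM, and replicate 1 of the 10 μM group lay far above its fellows. Its levels in Schneider's medium were 10.4, 10.4 and 9.81 CPM with 10 μM heme and 1.20, 1.14 and 1.76 CPM with 0 μM. AAEL025604 had 7.89, 3.75 and 6.83 CPM in A20 cells with 10 μM heme, against 22.3, 31.4 and 34.5 CPM with 0 μM. Its levels in Schneider's medium were 42.6, 43.8 and 39.0 CPM with 10 μM heme, against 7.17, 6.25 and 7.98 CPM with 0 μM. AAEL012268 had 5.15, 1.30 and 0.726 CPM in A20 cells with 10 μM heme, against 27.0, 63.5 and 58.3 CPM with 0 μM, and replicate 1 of each group lay nearest to the other group. In Schneider's medium it had 149, 152 and 153 CPM with 10 μM heme, against 22.5, 21.7 and 21.1 CPM with 0 μM. All 3 libraries of each 10 μM group lay apart from their 0 μM group. The remaining genes of the 10 with the largest responses were AAEL012949, AAEL019540, AAEL000590, AAEL019708 and AAEL005485, with d of -1.79 to -3.15 in A20 cells.

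AAEL012949 and AAEL019540 (chromosome 3, 205990188 to 206052831) had nearly the same counts in A20 cells. In the A20 0 μM libraries they had 502, 1283 and 1279 counts and 504, 1285 and 1285 counts, and in Aag2 cells their counts differed more. Of all pairs of the 170 genes with at least 100 counts in each A20 0 μM library, 2 pairs matched within 2% in all 3, this one and AAEL009123 with AAEL010061, which was picked out after its values were seen. With FBS the genes of the second pair went opposite ways between A20 and Aag2 L-15 cells. Their log2 fold changes were -2.68 ± 0.10 (SE) for AAEL009123 and 4.82 ± 0.09 (SE) for AAEL010061. Whether the same reads were counted for both genes of a pair was not tested, and the use of strand in the counting is not given in the sources used here.

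**Figure D3:**
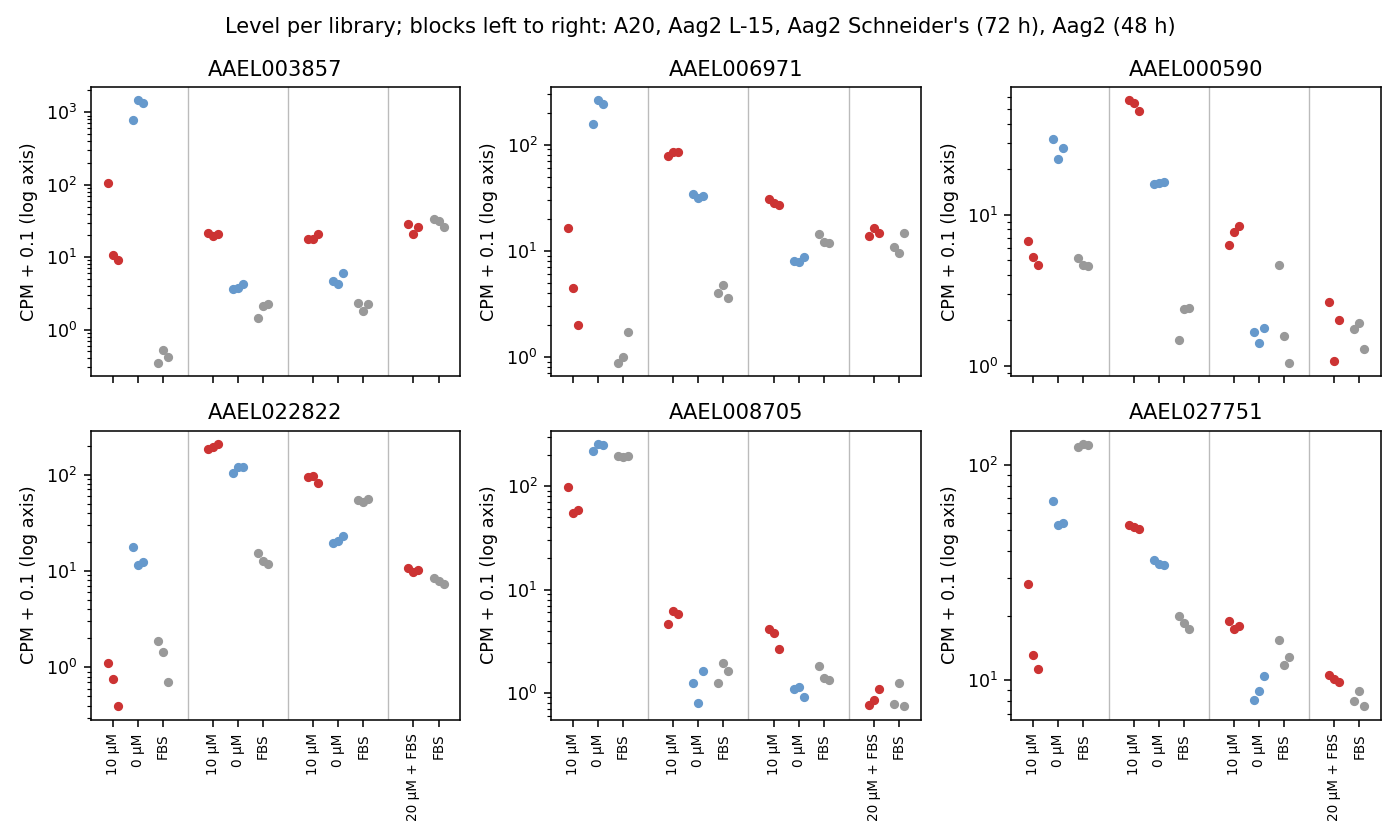
Level of 6 of the genes in every library, as CPM plus 0.1 on a log axis; the blocks are A20, Aag2 L-15 and Aag2 Schneider's cultures at 72 h and Aag2 cultures at 48 h, with added heme in red, 0 μM in blue and FBS in grey. In the A20 block every 10 μM library lies below every 0 μM library and in both Aag2 blocks at 72 h every one lies above, while the FBS libraries change place from gene to gene.

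Comparisons with the FBS groups were not part of the rule and could be tested. Each used edgeR's quasi-likelihood F test with Benjamini-Hochberg adjustment over all genes tested, at the study's false discovery rate of 0.0001. Log2 fold changes from it are given with their standard error (SE), and adjusted p-values are from it throughout. The 2 comparisons of FBS libraries share no library with the rule. Those of 0 μM or 10 μM heme with FBS do, so choosing genes that are high or low in these libraries shifts their direction. The comparisons of 0 μM and of 10 μM heme with FBS also share the FBS libraries with each other.

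With FBS, a larger share of these genes than of all genes was called higher in A20 cells. The share called lower was near that of all genes. Of the 162 genes tested, 47 were higher and 31 were lower in A20 cells than in Aag2 cells in L-15, against 17.1% and 18.1% of all genes tested. The members' shares were 29.0% and 19.1%, with a median log2 fold change of 0.43, against -0.02 over all genes tested. Without any 1 of the 6 libraries 39 to 51 were higher and 16 to 27 lower, the fewest lower without Aag2 L-15 replicate 2. Shares of all genes were then 9.71% to 16.1% higher and 11.1% to 16.9% lower. Line and experiment cannot be told apart here, and the rule favours genes expressed in A20 cells. AAEL001776 had 129, 134 and 141 CPM in A20 cells, against 0.511, 1.00 and 0.625 CPM in Aag2 cells, a log2 fold change of 7.51 ± 0.17 (SE, edgeR adjusted p = 6.8e-09). AAEL008705 had 198, 192 and 196 CPM in A20 cells, against 1.14, 1.83 and 1.53 CPM in Aag2 cells, a log2 fold change of 6.99 ± 0.14 (SE, edgeR adjusted p = 4e-09). Both were at over 100 CPM in one line and at 2 CPM or less in the other, and met the rule in each. In A20 cells AAEL008705 had 97.5, 55.7 and 58.8 CPM with 10 μM heme, against 218, 259 and 251 CPM with 0 μM. In Aag2 L-15 cultures it had 4.56, 6.12 and 5.71 CPM with 10 μM heme, against 1.15, 0.688 and 1.51 CPM with 0 μM.

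At the other end, AAEL009955 had 0.405, 0.191 and 0.275 CPM in A20 cells with FBS, against 24.6, 17.8 and 17.6 CPM in Aag2 cells, a log2 fold change of -6.08 ± 0.27 (SE, edgeR adjusted p = 2.4e-07). AAEL009466 had 1.78, 0.620 and 0.597 CPM in A20 cells, against 24.2, 18.7 and 21.9 CPM in Aag2 cells, a log2 fold change of -4.42 ± 0.36 (SE, edgeR adjusted p = 8.4e-06). The genes therefore shared no single level between the lines: their means with FBS ran over 0.0153 to 607 CPM in A20 cells and over 0 to 899 CPM in Aag2 L-15 cells. Of the 763 other genes raised in both Aag2 experiments, 663 were tested, and 118 of them (17.8%) were higher and 120 (18.1%) lower in A20 cells. These other genes failed the A20 condition of the rule, a condition that favours genes expressed in A20 cells. Their shares therefore cannot serve as a test against those of the members.

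Between media, with FBS, 8 of 164 genes tested were higher and 10 lower in L-15 than in Schneider's medium, 4.88% and 6.10%, against 3.23% and 3.55% of all genes tested. AAEL012363 had 23.8, 27.7 and 29.2 CPM in L-15, against 7.91, 5.23 and 6.71 CPM in Schneider's medium, a log2 fold change of 2.01 ± 0.16 (SE, edgeR adjusted p = 2.3e-05). AAEL013600 was also higher in L-15, with a log2 fold change of 1.45 ± 0.13 (SE, edgeR adjusted p = 6e-05). AAEL022822 had 15.1, 12.6 and 11.8 CPM in L-15, against 54.4, 52.1 and 56.0 CPM in Schneider's medium, a log2 fold change of -2.06 ± 0.09 (SE, edgeR adjusted p = 1.7e-06). AAEL003135 was lower in L-15, with a log2 fold change of -1.85 ± 0.18 (SE, edgeR adjusted p = 6.8e-05). Without any 1 of the 6 libraries 0 to 7 were higher and 4 to 9 lower, with 0 higher without replicate 2 of either group. Shares of all genes were then 0.654% to 2.93% higher and 0.923% to 3.45% lower. Medium and experiment cannot be told apart.

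Removal of serum without added heme was compared next, and in A20 cells it came with a change from L-15 to SF900 II. The genes were chosen for 0 μM levels above 10 μM in A20 cells and below 10 μM in Aag2 cells. Calls for 0 μM thus lean to higher in A20 cells and to lower in Aag2 cells by choice. In A20 cells 132 of the 170 genes were higher in every 0 μM library than in every FBS library and 6 were lower in every one, against 22.8% and 21.4% of all genes with counts. The median log2 fold change was 1.26, against -0.01 over all genes tested. At the study's threshold 6 of 169 genes tested were higher and 0 lower, against 0.4% and 0.0327% of all genes tested, and at an unadjusted p below 0.05 there were 120 higher and 5 lower, against 20.7% of all genes in each direction. The exact test of edgeR called 73 higher and 2 lower, against 6.47% and 2.94% of all genes, and DESeq2 called 75 and 2, against 6.37% and 6.11%. Without replicate 1 of the A20 10 μM group, which shares the estimate of spread, 40 were higher, against 2.97% of all genes. With replicate 1 of both the 10 μM and 0 μM groups left out 55 were, against 4.05%. Leaving out any 1 of the other A20 libraries gave 0 to 4, against 0% to 0.316% of all genes.

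Of those 6, AAEL002595 had 51.0, 57.9 and 61.2 CPM in A20 cells with 0 μM heme, against 1.13, 1.05 and 1.51 CPM with FBS, a log2 fold change of 5.53 ± 0.43 (SE, edgeR adjusted p = 8.6e-05). AAEL004533 had 25.4, 43.6 and 42.1 CPM with 0 μM heme, against 2.23, 2.00 and 1.84 CPM with FBS, a log2 fold change of 4.20 ± 0.34 (SE, edgeR adjusted p = 9.8e-05). The other 4 were AAEL000590, AAEL005792, AAEL019767 and AAEL020192, the last 3 picked out after their values were seen. In the A20 libraries AAEL000590 had 6.62, 5.14 and 4.58 CPM with 10 μM heme, 31.4, 23.4 and 27.7 CPM with 0 μM and 5.06, 4.58 and 4.50 CPM with FBS.

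In Aag2 cells in L-15, serum removal raised 48 of the 170 genes and lowered 13, or 28.2% and 7.65%, against 10.8% and 13.1% of all genes tested. Scaled to library totals alone, 66 were higher and 6 lower, against 18.2% and 7.48% of all genes, whose median log2 fold change was then 0.27. Without 0 μM replicate 2 or 3 of this experiment 8 were lower, against 9.18% and 9.26% of all genes. AAEL010283 had 88.7, 96.2 and 99.2 CPM with 0 μM heme, against 7.12, 7.49 and 6.87 CPM with FBS, a log2 fold change of 3.68 ± 0.07 (SE, edgeR adjusted p = 2.8e-11). AAEL010286 had 34.4, 33.7 and 30.2 CPM with 0 μM heme, against 2.48, 3.18 and 2.43 CPM with FBS, a log2 fold change of 3.55 ± 0.10 (SE, edgeR adjusted p = 3.8e-10). Among those that fell, AAEL025604 had 3.80, 2.34 and 3.13 CPM with 0 μM heme, against 9.75, 14.3 and 12.3 CPM with FBS, a log2 fold change of -2.01 ± 0.19 (SE, edgeR adjusted p = 2.7e-06). With 10 μM heme AAEL025604 stood at 17.8, 18.5 and 14.8 CPM, above the FBS libraries. AAEL001918 fell likewise, to 19.9, 16.1 and 20.6 CPM with 0 μM heme, against 59.0, 54.8 and 53.4 CPM with FBS, a log2 fold change of -1.61 ± 0.09 (SE, edgeR adjusted p = 3.7e-08).

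In Schneider's medium serum removal raised 3 genes and lowered 7, 1.76% and 4.12%, against 1.46% and 1.04% of all genes tested, and the median log2 fold change was -0.20. Without any 1 of the 9 libraries 1 to 3 were higher and 3 to 5 lower, against 0.535% to 1.46% and 0.342% to 0.938% of all genes. AAEL014138 had 95.3, 93.0 and 92.4 CPM with 0 μM heme, against 39.5, 37.4 and 37.0 CPM with FBS, a log2 fold change of 1.28 ± 0.05 (SE, edgeR adjusted p = 1.3e-07). AAEL001084 rose as well, with a log2 fold change of 0.87 ± 0.09 (SE, edgeR adjusted p = 5.7e-05). AAEL009123 had 59.6, 68.7 and 65.9 CPM with 0 μM heme, against 126, 115 and 124 CPM with FBS, a log2 fold change of -0.93 ± 0.06 (SE, edgeR adjusted p = 3.4e-06), and with 10 μM heme it stood at 123, 128 and 117 CPM, overlapping the FBS libraries. AAEL022822 went opposite ways in the 2 media. In Schneider's medium it had 19.6, 20.2 and 23.02 CPM with 0 μM heme, against 54.4, 52.1 and 56.0 CPM with FBS, a log2 fold change of -1.39 ± 0.08 (SE, edgeR adjusted p = 1.4e-06). In L-15 it had 105, 118 and 119 CPM with 0 μM heme, against 15.1, 12.6 and 11.8 CPM with FBS, a log2 fold change of 3.07 ± 0.10 (SE, edgeR adjusted p = 5.8e-10). With 10 μM heme it was the highest of the 3 groups in both media. In a joint fit of both media, added after the values were seen, its response to serum removal differed by 4.46 ± 0.13 (SE, edgeR adjusted p = 1.7e-11) on the log2 scale.

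The response to serum removal was also compared between the cultures in such joint fits. The log2 fold change was larger in A20 cells than in Aag2 cells in L-15 for 43 of the 170 genes and smaller for 4, against 6.45% and 3.77% of all genes tested. It was larger in L-15 than in Schneider's medium for 36 of 167 Aag2 genes tested and smaller for 7, against 8.02% and 12.5%. Cell line, medium and experiment cannot be told apart in these comparisons. The fits also share the libraries with neither serum nor added heme with the rule that chose the genes. That rule favours a larger response in A20 than in Aag2 L-15 cultures. The counts for A20 against Aag2 L-15 therefore cannot serve as a test against the shares of all genes.

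The cultures with 10 μM heme were also set against serum. The genes were chosen to be low with 10 μM heme in A20 cells and high in Aag2 cells, so their calls here lean to those sides by choice, and the shares of all genes are given only as background. In A20 cells 0 of 169 genes tested were higher and 21 were lower (12.4%), against 4.47% and 6.38% of all genes tested, with a median log2 fold change of -0.76, against 0.02. At an unadjusted p below 0.05, 17 were higher and 88 lower, against 31.6% and 32.0% of all genes. The exact test called 2 higher and 55 lower, against 15% and 17.6%, and DESeq2 2 and 60, against 16.7% and 18.1%. The means of 119 of the 170 genes lay below FBS, and every 10 μM library lay above every FBS library for 14 genes and below for 84, against 26.5% and 23.6% of all genes with counts. This count leaned on single libraries, and the share of all genes moved with it. Without replicate 1 of the 10 μM group 52 genes were lower, against 13.9% of all genes. With replicate 1 of both the 10 μM and 0 μM groups left out 59 were, against 14.1%. None were lower without FBS replicate 2 or 3, against 0.482% and 0.538% of all genes. Leaving out any other A20 library gave 1 to 12, against 1.45% to 3.44%. AAEL001503 had 1.21, 0.816 and 2.18 CPM with 10 μM heme, against 19.4, 26.9 and 29.9 CPM with FBS, a log2 fold change of -4.26 ± 0.33 (SE, edgeR adjusted p = 1.1e-05). AAEL027751 had 27.9, 13.0 and 11.2 CPM with 10 μM heme, against 121, 126 and 124 CPM with FBS, a log2 fold change of -2.91 ± 0.31 (SE, edgeR adjusted p = 5.6e-05). Both were among the 18 genes whose mean was below FBS also with 0 μM heme, at 9.61, 7.84 and 8.88 CPM for AAEL001503 and 67.8, 52.4 and 53.9 CPM for AAEL027751.

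The place of the FBS level varied. For 101 genes the A20 mean was above FBS with 0 μM heme and below FBS with 10 μM. For 51 it was above FBS in both, as for AAEL003857 and AAEL006971. AAEL006971 had 16.2, 4.32 and 1.89 CPM with 10 μM heme, 156, 261 and 243 CPM with 0 μM and 0.770, 0.906 and 1.61 CPM with FBS.

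In Aag2 cells the 10 μM cultures lay above serum. In L-15 127 of 170 genes were higher (74.7%) and 0 were lower, against 15.5% and 18.2% of all genes tested, with a median log2 fold change of 1.57 and, at an unadjusted p below 0.05, 162 higher and 3 lower, against 37.3% and 33.2%. The exact test and DESeq2 each called 144 higher and 0 lower, against 22.9% and 22.6% of all genes by the exact test and 21.8% and 24.2% by DESeq2. Among the Schneider's cultures 77 were higher (45.3%) and 0 were lower, against 6.33% and 7.47% of all genes tested, with a median of 1.06 and, at an unadjusted p below 0.05, 156 higher and 0 lower, against 25.4% of all genes in each direction. There the exact test and DESeq2 each called 110 higher and 0 lower, against 9.68% and 9.85% of all genes by the exact test and 10.5% and 12.8% by DESeq2. In both media 59 genes were higher, 46.5% of the 127 and 76.6% of the 77, or 34.7% of the 170, against 3.41% of all genes tested in both. Of these 59, 8 were also lower in A20 cells with 10 μM heme than with FBS, 38.1% of the 21 there and 4.73% of 169 tested, against 0.158% of all genes tested in all 3 experiments. Such calls in these directions are what the rule favours. AAEL006971 had 78.6, 84.8 and 85.7 CPM in L-15 with 10 μM heme, against 3.93, 4.66 and 3.51 CPM with FBS, a log2 fold change of 4.35 ± 0.09 (SE, edgeR adjusted p = 1.7e-11). AAEL000590 had 57.0, 54.4 and 48.7 CPM in L-15 with 10 μM heme, against 1.38, 2.28 and 2.33 CPM with FBS, a log2 fold change of 4.72 ± 0.14 (SE, edgeR adjusted p = 2e-10). With 0 μM heme AAEL006971 had 34.3, 31.5 and 32.9 CPM and AAEL000590 had 15.9, 16.2 and 16.5 CPM, between the 10 μM and FBS libraries in each case.

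In Schneider's medium AAEL025975 had 36.5, 38.1 and 39.1 CPM with 10 μM heme, against 4.59, 4.17 and 3.79 CPM with FBS, a log2 fold change of 3.20 ± 0.12 (SE, edgeR adjusted p = 6e-09). AAEL012268 had 22.0, 19.7 and 16.3 CPM with FBS, and its log2 fold change with 10 μM heme was 2.99 ± 0.09 (SE, edgeR adjusted p = 1.3e-09). In A20 cells AAEL025975 was all but absent with FBS, at 0 to 2 counts per library, and stood at 3.18, 0.163 and 0.291 CPM with 10 μM heme and 67.6, 105 and 118 CPM with 0 μM. Of the 763 other genes raised in both Aag2 experiments, 762 were tested in L-15. With 10 μM heme 471 of these (61.8%) were higher than with FBS, a side that their choice favours. In A20 cells 16 of 617 tested (2.59%) were higher and 3 (0.486%) lower. The 763 genes met the other conditions of the rule but failed its A20 condition. Genes lowered most by 10 μM heme in A20 cells were thus left out of them by choice. Their A20 shares therefore cannot serve as a test against those of the 170 genes.

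**Figure D4:**
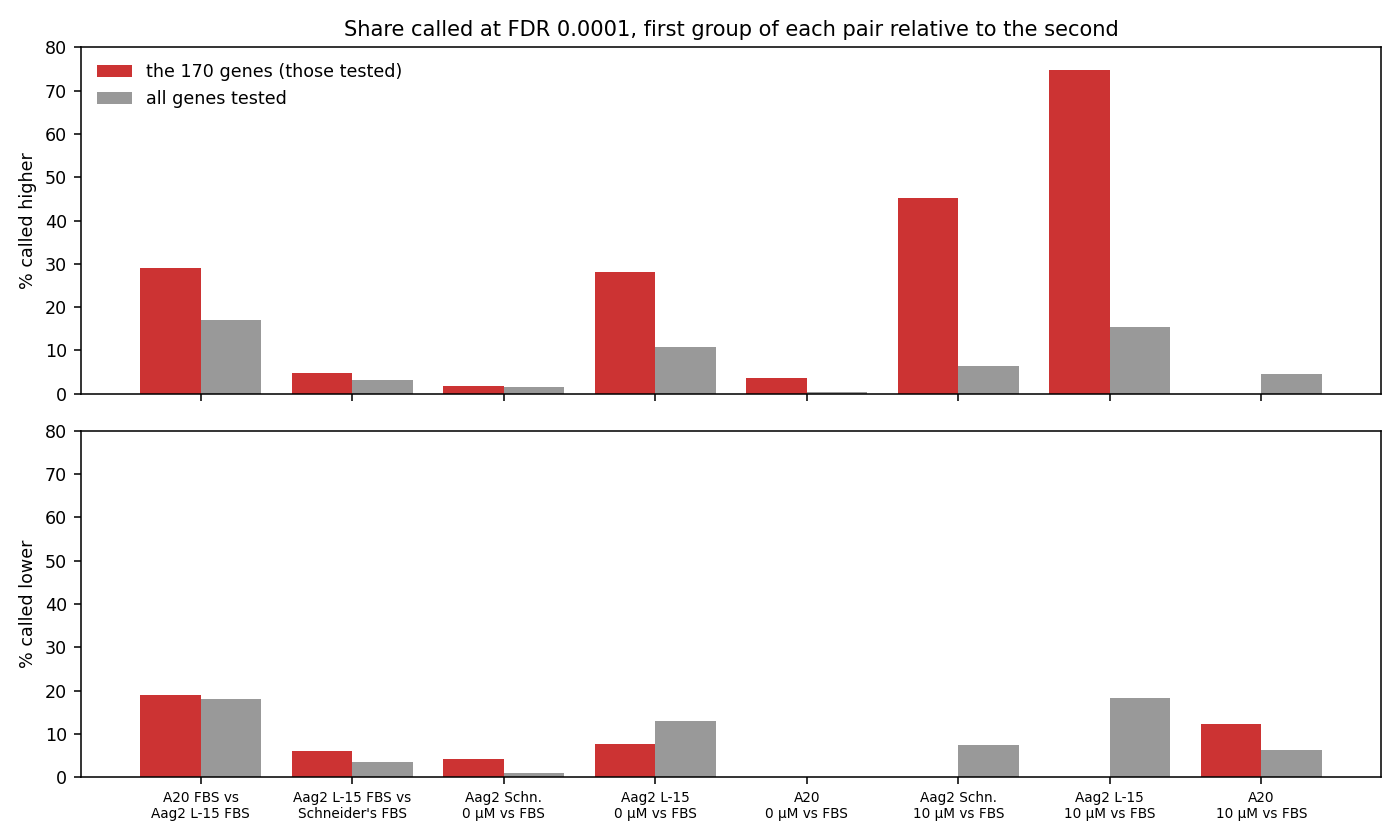
Share of the 170 genes (red, of those tested) and of all genes tested (grey) called higher (upper panel) or lower (lower panel) at a false discovery rate of 0.0001, as a percentage from 0, for 8 comparisons in which the first group named is set against the second. With 10 μM heme against FBS the genes were called higher in 74.7% and 45.3% of cases in Aag2 cells and in none in A20 cells, where 12.4% were lower, the sides that the choice of genes favours.

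At 48 h the rule allowed no d of 0.5 or more for 20 μM heme added to serum. For 99 of the 170 genes the groups overlapped, for 53 every heme library was the higher and for 18 every one was the lower, against 14.8% and 15.4% of all genes with counts. AAEL012268 had 14.9, 11.8 and 16.5 CPM with 20 μM heme, against 26.1, 25.6 and 18.6 CPM with FBS, and AAEL006971 had 13.8, 16.4 and 14.5 CPM, against 10.8, 9.50 and 14.6 CPM. Dose, time and serum all differ between this experiment and those of 72 h, so they cannot be told apart, and the sources do not agree on the library kit used at 48 h.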

How the data were processed

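Total RNA was isolated with TRIzol, and mRNA libraries were sequenced as paired-end reads. The authors aligned reads with HISAT2 (version 2.1.0) to the AaegL5 genome, filtered the alignments with SAMtools and counted reads per gene model with BEDtools (version 2.19.1), and the deposited tables hold these raw counts. The strand setting is not given in the sources used here. For the 48 h libraries the labels and the study's methods name different library kits. Reads shared by overlapping or duplicated genes cannot be assigned from these tables. Libraries held 22860764 to 38002762 counts. All columns were assigned to a sample by name. Replicate pairs differed beyond counting error, with chi-square per degree of freedom of 7.42 to 177.

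The 8 comparisons with or between FBS groups were fitted in edgeR (version 4.0.16, R 4.3.3) with TMM scaling, filterByExpr and the quasi-likelihood F test, with p-values adjusted by Benjamini-Hochberg over all genes tested and a threshold of 0.0001. Each comparison within an experiment used its 9 libraries. The fitting was tested on simulated data. Genes were named by rule: the 10 with the largest response by the weakest of their 3 heme contrasts at 72 h; in each comparison the 2 called genes with the largest and the 2 with the smallest fold change, averaging at least 10 CPM with groups that did not overlap; annotated genes; and genes at the edges of the rule. The members, lists and tests were chosen with earlier results of these data known. The study's annotation table supplied names, and 0 of the 170 genes matched the RefSeq table, so no sequences are shown.

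Alternatives were edgeR's exact test, DESeq2 (version 1.42.0), RLE and library size scaling, no filter, a replicate block, each library left out, and other settings of the rule. The joint fits for serum removal, and the fits without replicate 1 of both the A20 10 μM and 0 μM groups, were added after the data were seen.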

Additional observations from a re-analysis of the deposited data

Results flagged for a closer look

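The response to serum removal was compared between sets of cultures, by interaction terms in joint edgeR fits at the same threshold. In A20 cells the basal medium changed with the serum. The log2 fold change of 0 μM heme against FBS was larger in A20 than in Aag2 L-15 cultures for 43 of the 170 genes and smaller for 4, with a median difference of 0.83, against 0.08 over all genes tested. At the extremes were AAEL003857, with a difference of 10.85, and AAEL010283, with -3.26. It was larger in Aag2 L-15 than in Schneider's cultures for 36 of 167 genes and smaller for 7, with a median difference of 0.52, against 0.03. There AAEL022822 had 4.46 and AAEL025604 had -2.17. All these fits share the 0 μM libraries with the rule that chose the genes. That rule favours a larger response in A20 than in Aag2 L-15 cultures. Without any 1 library the 4 counts ran over 30 to 56, 4 to 7, 24 to 35 and 5 to 7, the first 2 for A20 minus Aag2 L-15 and the last 2 for L-15 minus Schneider's medium. In the same order the shares of all genes were 3.87% to 7.51%, 2.08% to 4.10%, 5.92% to 7.96% and 10.3% to 12.8%.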

How the results depend on the processing

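Counts of called genes are given as higher or lower in the first group named, with the value of the edgeR quasi-likelihood test before the alternatives. In A20 cells with 0 μM heme against FBS, 6 higher became 73 (exact test), 75 (DESeq2), 15 (no filter) and 2 (library size alone), and 0 lower became 2 with the exact test and 2 with DESeq2. In that order 6.47%, 6.37%, 0.695% and 0.171% of all genes were higher, and 2.94% and 6.11% lower. In A20 cells with 10 μM heme against FBS, 21 lower became 55 (exact test) and 60 (DESeq2), and 0 higher became 2 and 2. In L-15 against Schneider's medium with FBS, 8 higher became 20 (exact test) and 23 (DESeq2), and 10 lower became 25 and 30. The shares of all genes were 8.24% and 9.81% higher, and 8.87% and 10.3% lower. In Schneider's medium with 0 μM heme against FBS, 3 higher became 7, 8 and, with no filter, 5, and 7 lower became 16 and 19. All genes had 3.08%, 5.38% and 1.49% higher, and 2.57% and 3.66% lower. In Aag2 L-15 with 0 μM heme against FBS, 13 lower became 22 (DESeq2) and 6 (library size alone), against 18.6% and 7.48% of all genes. Library size alone also moved the median of all genes, to -0.56 for A20 10 μM, 0.45 for Aag2 L-15 10 μM and 0.27 for Aag2 L-15 0 μM, each against FBS. RLE factors kept every count of called genes within 1.5 times. The cause of these shifts was not tested.

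Same-numbered libraries did not deviate together: their correlations ran over -0.018 to 0.125 in A20, -0.033 to 0.054 in Aag2 L-15, -0.044 to -0.0016 in Schneider's medium and, with FBS, -0.025 to 0.058 between lines and 0.0088 to 0.120 between media. With a replicate block the A20 counts were 0 higher for 0 μM against FBS and 0 lower for 10 μM against FBS. Of all genes 0.098% and 0.237% were called there. A20 against Aag2 L-15 had 16 lower, L-15 against Schneider's medium 5 higher, and Schneider's 0 μM against FBS 4 lower. The shares of all genes for these were 11.5%, 1.96% and 0.478%. The block moved no other count by over 1.5 times.

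With libraries left out, the counts ran over 39 to 51 higher and 16 to 27 lower for A20 against Aag2 L-15, 0 to 7 and 4 to 9 for L-15 against Schneider's medium, 1 to 3 and 3 to 5 for Schneider's 0 μM, and 42 to 50 and 8 to 12 for L-15 0 μM. In the same order, 9.71% to 16.1%, 0.654% to 2.93%, 0.535% to 1.46% and 7.39% to 9.74% of all genes were higher. The shares lower were 11.1% to 16.9%, 0.923% to 3.45%, 0.342% to 0.938% and 9.06% to 12.1%. For A20 0 μM the counts were 0 to 40 and 0 to 1, against 0% to 2.97% and 0% to 1.57% of all genes. They were 55 and 1 without replicate 1 of both the 10 μM and 0 μM groups, against 4.05% and 2.51%. For Schneider's 10 μM they were 66 to 80 and 0, against 4.07% to 5.38% and 4.82% to 6.34% of all genes. For L-15 10 μM they were 110 to 123 and 0 to 1, against 11.6% to 13.6% and 14.2% to 17.1%. For A20 10 μM they were 0 to 1 and 0 to 52, against 0.0158% to 12.2% and 0.482% to 13.9%. Without both they were 2 and 59, against 12.6% and 14.1%. The number of genes meeting the rule ran over 157 to 224, with 228 without both. It was 392 without centring, including all 170, 326 with a pseudocount of 0.25, sharing 156, and 173 with TMM scaling and no centring, sharing 142. Of the results of the genes named by rule, over all comparisons and alternatives, 188 lost their call, 174 gained one and none reversed. The remaining 3698 stayed as they were, and these include results that were not called in either fit.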
